A study of Mus musculus with 6 samples.

Results

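Btg1, Btg2, Tob1, Tob2, Tsc1, Tsc2, Txnip, Cdkn1b, Rheb and Vsir, 10 genes that hold resting lymphocytes in quiescence or that sit on the growth pathway such genes restrain, were followed in naive CD8 T cells with and without CD103. They were chosen by symbol, with earlier results of these data known, and are 10 of the 55450 genes in the count table. Itgae encodes CD103, an integrin chain (alpha E) that joins beta 7 on the cell surface and recognises E-cadherin. The WT group was C57BL/6 mice and the CD103KO group was Itgae-/- mice, with 3 libraries of polyadenylated RNA in each. In both groups CD8 T cells came from lymph node and were sorted as lacking Ly6C and CXCR3, which mark CD8 T cells with memory-like features. No treatment, age or sex is given in the labels. The labels also do not say whether libraries came from separate or pooled animals, and the p-values below therefore reflect only how these samples vary, which may be technical.

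Quiescent T cells stay small, divide rarely and keep many transcripts at low abundance until an antigen is met. BTG and TOB proteins, a family with a shared N-terminal domain, bring messenger RNAs to the CCR4-NOT deadenylase, which shortens their poly(A) tails. The TSC1-TSC2 complex switches off the small GTPase RHEB, which otherwise activates the growth kinase complex mTORC1. TXNIP restrains glucose uptake and binds thioredoxin, p27Kip1 (encoded by Cdkn1b) blocks cyclin-dependent kinases, and VISTA (encoded by Vsir) is an inhibitory receptor present on naive T cells. Transcription factors of the forkhead FOXO class are active in resting T cells and are known to drive several quiescence genes.

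The promoters of Btg1 and Txnip are shown because these genes had the highest length-scaled levels of the 10, were below WT in all 3 CD103KO libraries, and hold a forkhead core. Each runs 5′ to 3′ on the strand of its gene, from 250 bases before to 50 after the transcription start (RefSeq, GRCm38.p6), chr10:96616751-96617050 (plus strand) for Btg1 and chr3:96557707-96558006 (plus strand) for Txnip. Capitals mark the forkhead core GTAAACA or its reverse complement TGTTTAC.
Btg1: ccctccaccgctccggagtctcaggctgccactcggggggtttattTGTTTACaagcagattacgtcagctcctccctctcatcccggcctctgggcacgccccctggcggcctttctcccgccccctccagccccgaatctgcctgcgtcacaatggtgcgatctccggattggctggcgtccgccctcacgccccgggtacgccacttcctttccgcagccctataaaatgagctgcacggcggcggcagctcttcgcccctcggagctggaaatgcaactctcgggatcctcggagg
Txnip: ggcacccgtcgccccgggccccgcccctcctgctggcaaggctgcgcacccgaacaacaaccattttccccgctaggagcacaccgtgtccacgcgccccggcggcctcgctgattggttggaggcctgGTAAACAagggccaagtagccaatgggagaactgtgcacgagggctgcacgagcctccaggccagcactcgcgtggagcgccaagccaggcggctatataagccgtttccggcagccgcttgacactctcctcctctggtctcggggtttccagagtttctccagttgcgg
The core starts 204 bases before the start site of Btg1, as the reverse complement, and 121 bases before that of Txnip, as written.

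All 10 genes matched an entry of the RefSeq promoter table, and 2 of the 10 windows held the forkhead core on either strand, against 3.65% of 32851 promoters of the same length. The E-box CACGTG was found in the window of Rheb alone among the 10 (7.15% of all promoters). The core of the cyclic AMP response element, TGACGT, was found in Btg1 and Btg2 (7.51% of all promoters, both strands). CCAAT was found in Btg1, Btg2, Tob1, Txnip and Cdkn1b, 5 of the 10, against 37.4% of all promoters. TATAAA was also searched and was found in Btg1 and Tob1, against 13.6% of all promoters. These matches describe letters in a window and say nothing of binding in these cells.

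The Itgae transcript served as the check of the labels, with 491, 495 and 459.9 CPM (counts scaled to a TMM-adjusted library size) in the WT libraries and 67.9, 67.9 and 61.1 CPM in the CD103KO libraries; here and below, values are in the order of replicates 1, 2 and 3. All CD103KO libraries were low, with a log2 ratio of CD103KO over WT of -2.88 (adjusted p = 4.058e-08, edgeR quasi-likelihood test). Libraries held 68292475 to 94347034 counts, so that 1 count was worth 0.0106 to 0.0146 CPM. WT replicates 1 and 2 had Xist at 67.3 and 80.9 CPM and 0 counts of the Y-linked Ddx3y, whereas in WT replicate 3 and all of CD103KO Xist had 2 counts or fewer and Ddx3y was at 47.5 to 55.3 CPM. The WT group is therefore mixed by this measure and the CD103KO group is not. Each of the 10 genes is given below both from the group comparison and from a fit with a term for Xist reads, in which WT replicate 3 alone carries the WT level beside the CD103KO libraries.

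CD8 T cell markers summed to 7617 to 8129 CPM in WT and 7687 to 8016 CPM in CD103KO, with 0 of 8 called at an adjusted p under 0.05 (edgeR; 1 higher at an unadjusted p under 0.05; DESeq2 0). The 6 naive markers all had negative log2 fold changes, median -0.10, and 0 of 6 were called (edgeR; 2 lower at an unadjusted p under 0.05; DESeq2 0). B cell markers differed between groups: 3 of 8 (Cd79a, Ms4a1 and Fcer2a) were called higher by edgeR (6 higher at an unadjusted p under 0.05; DESeq2 6). The 8 summed to 25.8 to 29.1 CPM in WT and 31.7 to 37.4 in CD103KO, and without Cd79b, which made up most of that sum, to 2.40 to 2.94 and 7.14 to 11.4 CPM. Red cell and platelet markers summed to 33.0 to 50.1 CPM in WT and 57.4 to 93.0 in CD103KO, with 0 of the 5 tested called by edgeR (4 higher at an unadjusted p under 0.05; DESeq2 3) and Pf4 at 0 in all libraries. CD4 and regulatory T cell markers (8.95 to 10.98 against 9.95 to 12.1 CPM), myeloid and dendritic markers (3.65 to 6.52 against 4.05 to 5.23 CPM, with Cd14 and Siglech at 0) and NK markers (37.6 to 45.8 against 38.2 to 44.8 CPM) overlapped between groups, as did stromal markers (136.8 to 151 against 127 to 167 CPM, with Pdpn at 0). In these 4 lists 0 genes were called by edgeR or DESeq2, and 1 stromal gene, lower, had an unadjusted p under 0.05. Most of the stromal sum was Pecam1 (means of 143 CPM in WT and 146 in CD103KO). Most of the NK sum was Eomes (35.5 and 37.3 CPM). The part of these markers in the values below was not tested, and in bulk RNA fewer cells with a transcript and less of it per cell cannot be told apart.

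None of the 10 quiescence regulators passed the test of CD103KO against WT across all genes. By edgeR's quasi-likelihood test, 0 of 10 reached an adjusted p under 0.05, where 0.223% of 13470 tested genes did (0.141% higher and 0.0817% lower in CD103KO). All 10 passed the filter on low counts. DESeq2 also called 0 of the 10, against 1.02% of 13464 genes. At an unadjusted p under 0.05 there were 3 of the 10, against 8.73% of all tested genes. These were Btg1 and Txnip with lower values in CD103KO (4.2% of tested genes were lower by this measure) and Tsc2 with higher values (4.53% were higher). The count was not stable: with each library left out in turn, it ran from 0 (without CD103KO replicate 2 or 3) to 4 (without WT replicate 3). The CPM of WT and CD103KO did not overlap for 4 of the 10, against 14.2% of all tested genes. CD103KO was the lower group for Btg1, Txnip and Cdkn1b (7.36% of tested genes) and the higher group for Tsc2 (6.82%). Among the 6156 tested genes at or above the level of the lowest of the 10, the shares were 9.73% for the unadjusted p and 15.5% for no overlap. Log2 fold changes were positive for 5 genes and negative for 5, with a median of -0.0016 where all tested genes had -0.0025. With the Xist term the median of the 10 was 0.09, where all tested genes had 0.002, and without WT replicate 3 it was -0.052. Their median size was 0.062, against 0.076 over all tested genes and 0.049 over the 6156. The 95% intervals of all 10 lay between 0.779 and 1.196 times the WT level.

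**Figure D1:**
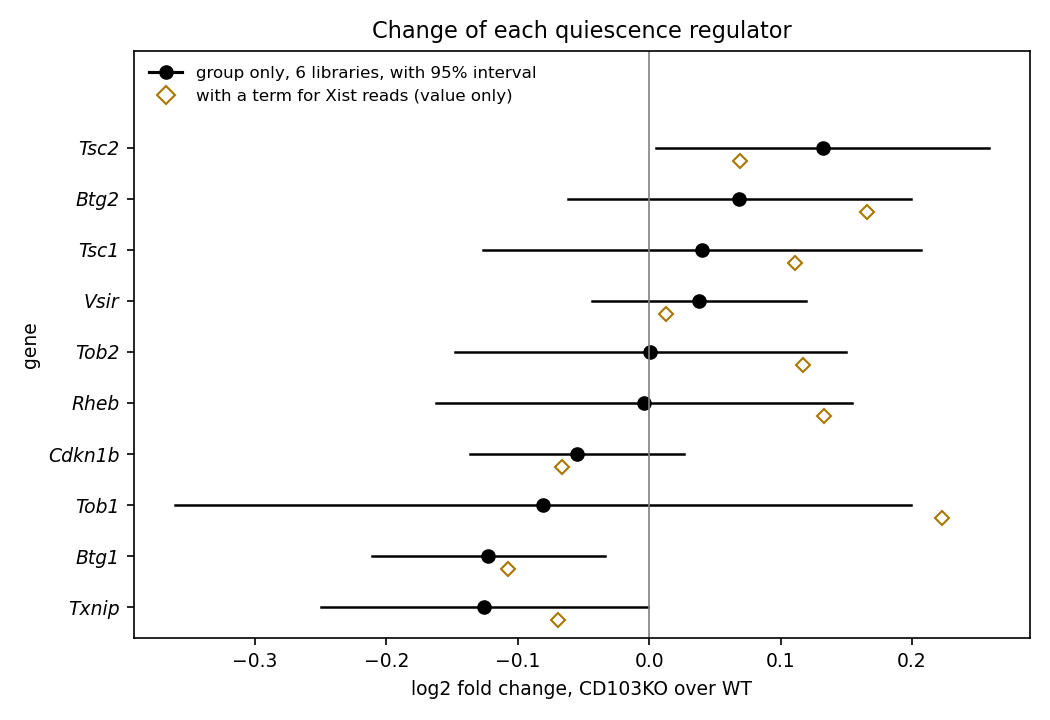
Log2 fold change (CD103KO over WT, horizontal axis) of each quiescence regulator (vertical axis), with filled points and 95% intervals from the group comparison of 6 libraries and open diamonds from the fit with a term for Xist reads. Intervals lie beyond 0 for Btg1, Txnip and Tsc2, and the diamonds of Tob1 and Rheb are at 0.22 and 0.13 where the filled points are at -0.08 and -0.0039.

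Btg1 and Btg2 encode the closely related short members of the BTG family. Btg1 (ENSMUSG00000036478.8, chromosome 10, 96617006 to 96622809, plus strand, GRCm38 as all positions here) was at 950.6, 961 and 941 CPM in WT and 912, 853 and 857 in CD103KO. All 3 CD103KO libraries were below all 3 WT libraries, with CD103KO replicate 1 the closest to WT. The means were 951 ± 9.96 and 874 ± 33.2 CPM (SD, n = 3 each), which gives a log2 fold change of -0.12 (SE 0.039, 95% interval -0.21 to -0.034, not past the threshold, adjusted p = 0.434, edgeR). With the Xist term it was -0.11 (adjusted p = 0.683, edgeR). These values rest on 58072 to 92035 counts per library.

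Btg2 (ENSMUSG00000020423.6, chromosome 1, 134075170 to 134079120, minus strand), also induced by p53, was at 189.9, 180.9 and 168 CPM in WT and 176, 195 and 194 in CD103KO. The groups overlapped, with WT replicate 3 lowest and CD103KO replicates 2 and 3 highest. The log2 fold change was 0.07 (SE 0.058, 95% interval -0.062 to 0.20, adjusted p = 0.766, edgeR), and 0.17 with the Xist term (adjusted p = 0.674, edgeR). Btg1 was lower and Btg2 higher on average. The share of Btg1 in their length-scaled sum was computed within each library, as for the Tob and Tsc pairs, since such shares do not depend on normalization. It was 72.2%, 73.4% and 74.5% in WT and 72.9%, 69.5% and 69.6% in CD103KO. CD103KO replicate 1 lay within the WT range and the other two CD103KO libraries below it. The difference was -2.69 percentage points (73.4 ± 1.11% against 70.7 ± 1.93%, SD, n = 3, exact two-sided permutation p = 0.2, 0.6 after Benjamini-Hochberg adjustment over 3 pairs, where 0.1 is the smallest p that 3 against 3 allows).

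Tob1 and Tob2 encode the longer family members, which also bind poly(A)-binding protein. Tob1 (ENSMUSG00000037573.5, chromosome 11, 94211454 to 94215495, plus strand) lies 21.1 Mb from Itgae on the same chromosome and was at 25.4, 23.8 and 18.2 CPM in WT and 18.9, 22.9 and 21.9 in CD103KO. It had the widest spread of the 10, with a coefficient of variation of 16.8% in WT, and WT replicate 3 was the lowest library and WT replicates 1 and 2 the highest. The log2 fold change was -0.08 (SE 0.12, 95% interval -0.36 to 0.20, adjusted p = 0.881, edgeR). It was 0.22 with the Xist term (adjusted p = 0.713, edgeR), so that the sign turned with the treatment of WT replicates 1 and 2. Counts of Tob1 were 1391 to 2277 per library.

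Tob2 (ENSMUSG00000048546.8, chromosome 15, 81848272 to 81858796, minus strand) was at 95.8, 96.0 and 85.2 CPM in WT and 84.7, 95.7 and 96.8 in CD103KO. Each group held 1 low library and a pair of nearly equal high ones, and the group means were 92.3 ± 6.20 and 92.4 ± 6.71 CPM (SD, n = 3). The log2 fold change was 0.0007 (95% interval -0.15 to 0.15, adjusted p = 0.998, edgeR) and 0.12 with the Xist term (adjusted p = 0.773, edgeR). Tob1 made up 41.3 ± 2.66% of the length-scaled Tob1 and Tob2 sum in WT and 40.1 ± 0.868% in CD103KO (SD, n = 3, exact two-sided permutation p = 0.6, also after adjustment over 3 pairs).

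**Figure D2:**
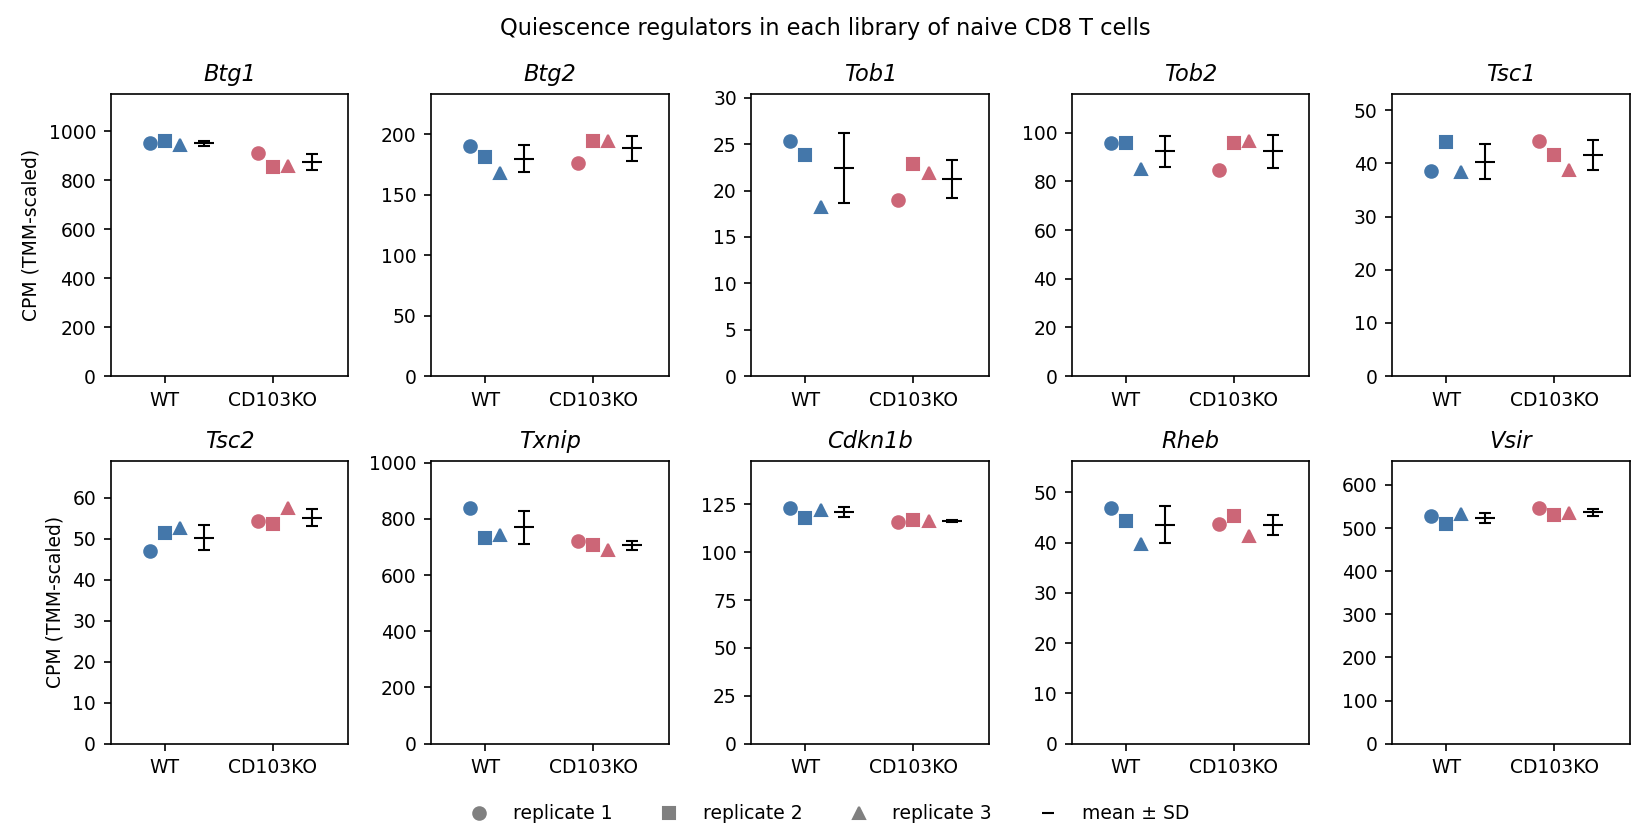
CPM (vertical axes, each from 0) of the 10 quiescence regulators in WT and CD103KO, with circles, squares and triangles for replicates 1, 2 and 3 and a bar for the mean with its SD (n = 3). Groups do not overlap for Btg1, Txnip and Cdkn1b (lower in CD103KO) and Tsc2 (higher), and Btg2, Tob1 and Tob2 share low values in WT replicate 3 and CD103KO replicate 1.

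Tsc1 encodes hamartin, which stabilises the complex, and Tsc2 encodes tuberin, its GTPase-activating subunit. Tsc1 (ENSMUSG00000026812.16, chromosome 2, 28641228 to 28691167, plus strand) was at 38.5, 44.1 and 38.4 CPM in WT and 44.3, 41.5 and 38.7 in CD103KO. The groups overlapped almost fully, with WT replicate 2 and CD103KO replicate 1 the high libraries. Its log2 fold change was 0.04 (SE 0.074, 95% interval -0.13 to 0.21, adjusted p = 0.907, edgeR) and 0.11 with the Xist term (adjusted p = 0.819, edgeR).

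Tsc2 (ENSMUSG00000002496.10, chromosome 17, 24595816 to 24632630, minus strand) was at 46.9, 51.3 and 52.5 CPM in WT and 54.3, 53.5 and 57.4 in CD103KO. All CD103KO libraries were above all WT libraries, though CD103KO replicate 2 exceeded WT replicate 3 by little. The means were 50.2 ± 2.95 and 55.1 ± 2.10 CPM (SD, n = 3), which gives a log2 fold change of 0.13 (SE 0.056, 95% interval 0.0051 to 0.26, not past the threshold, adjusted p = 0.550, edgeR). With the Xist term it was 0.07 (adjusted p = 0.855, edgeR). Tsc2 ends within Pkd1, which is read from the opposite strand and overlaps it by 693 bases. Whether the counting used strand is not given in the sources used here, so some reads may be shared. Pkd1 was at 104 ± 8.53 CPM in WT and 106 ± 7.04 in CD103KO (SD, n = 3, log2 fold change 0.03, adjusted p = 0.931, edgeR). A Tsc2 transcript also shares a similar stretch with the Y-linked Kdm5d (91.6% identity over 404 bases, reverse orientation). Kdm5d had means of 16.4 CPM in WT and 47.2 in CD103KO (log2 fold change 1.53, adjusted p = 0.785, edgeR). The other tested genes that share this stretch had negative log2 fold changes. The part of such reads in the Tsc2 values was not tested. The share of Tsc1 in the length-scaled Tsc1 and Tsc2 sum was 39.5 ± 1.97% in WT and 37.99 ± 2.33% in CD103KO (SD, n = 3, exact two-sided permutation p = 0.5, 0.6 after adjustment over 3 pairs).

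Rheb (ENSMUSG00000028945.9, chromosome 5, 24802823 to 24842624, minus strand), the GTPase on which the TSC complex acts, was at 46.9, 44.3 and 39.6 CPM in WT and 43.7, 45.4 and 41.3 in CD103KO. The CD103KO values lay inside the WT range. Rheb had a log2 fold change of -0.0039 (SE 0.070, 95% interval -0.16 to 0.15, adjusted p = 0.991, edgeR), and 0.13 with the Xist term (adjusted p = 0.736, edgeR).

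Txnip (ENSMUSG00000038393.14, chromosome 3, 96557957 to 96561883, plus strand) was at 838, 731 and 741 CPM in WT and 722, 706 and 689 in CD103KO. The CD103KO libraries were all below WT, but WT replicate 1 stood well above the other two WT libraries, which lay close to CD103KO replicate 1. The means were 770.0 ± 59.1 and 706 ± 16.4 CPM (SD, n = 3), which gives a log2 fold change of -0.13 (SE 0.055, 95% interval -0.25 to -0.0008, not past the threshold, adjusted p = 0.569, edgeR). Without WT replicate 1 it was -0.06, and with the Xist term -0.07 (adjusted p = 0.848, edgeR). The antisense gene Gm15441 spans Txnip on the opposite strand with mean CPM of 0.222 (WT) and 0.272 (CD103KO).

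Cdkn1b (ENSMUSG00000003031.14, chromosome 6, 134920401 to 134925513, plus strand) was at 123, 118 and 122 CPM in WT and 116, 117 and 116 in CD103KO. The groups did not overlap, and the CD103KO libraries were the tightest set among the 10 genes (116 ± 0.576 CPM, SD, n = 3, against 121 ± 2.68 in WT). Cdkn1b had a log2 fold change of -0.05 (SE 0.036, 95% interval -0.14 to 0.027, adjusted p = 0.706, edgeR) and -0.07 with the Xist term (adjusted p = 0.798, edgeR).

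Vsir (ENSMUSG00000020101.14, chromosome 10, 60346851 to 60372684, plus strand), the receptor among the 10, was at 527, 509.8 and 532 CPM in WT and 546, 531 and 534 in CD103KO. The groups overlapped through CD103KO replicate 2, which was below WT replicate 3. Its log2 fold change was 0.04 (SE 0.036, 95% interval -0.044 to 0.12, adjusted p = 0.797, edgeR), and 0.01 with the Xist term (adjusted p = 0.967, edgeR). Vsir lies inside Cdh23, a cadherin gene on the opposite strand with mean CPM of 0.251 (WT) and 0.319 (CD103KO).

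Levels between genes were compared per length, as CPM per kb of the union of exons (GENCODE M21). Txnip was highest at 236 ± 16.8 and Btg1 next at 173 ± 9.04 CPM per kb (SD over the 6 libraries). Vsir followed at 106 ± 2.36, Btg2 at 67.1 ± 3.93 and Cdkn1b at 26.1 ± 0.664 CPM per kb. Tob2 stood at 13.9 ± 0.867 and Tob1 at 9.55 ± 1.22 CPM per kb. Rheb, Tsc2 and Tsc1 were lowest, at 5.64 ± 0.344, 5.47 ± 0.363 and 3.46 ± 0.235 CPM per kb. The highest and the lowest mean differed 68.3-fold. Between neighbours in this order the ranges over 6 libraries overlapped only for Rheb and Tsc2, whose levels did not differ beyond their spread. Btg1 stood above Btg2, Tob2 above Tob1 and Tsc2 above Tsc1 in every library.

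**Figure D3:**
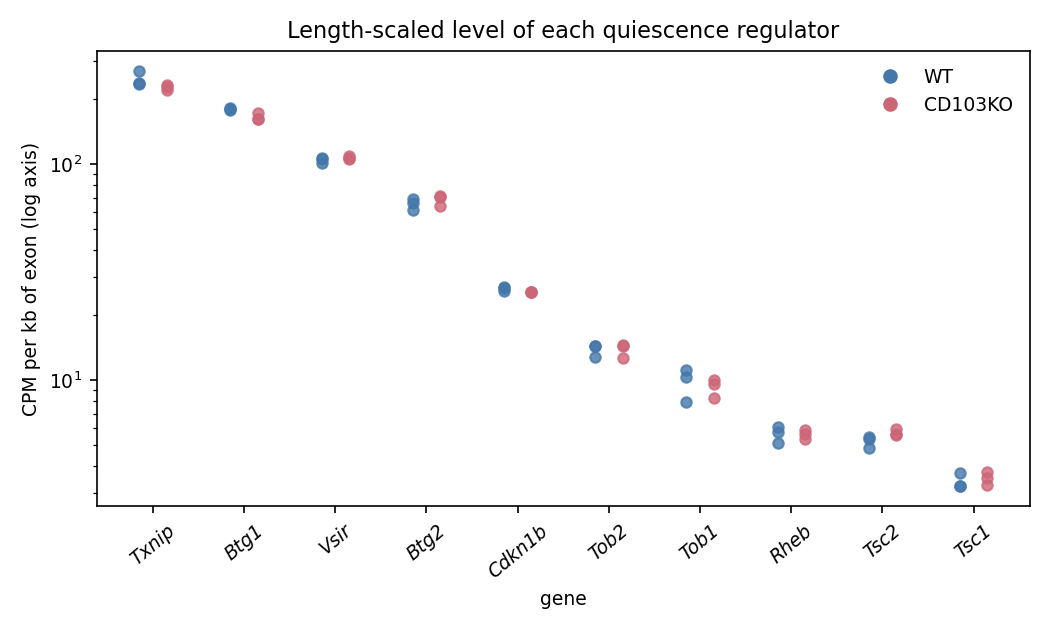
CPM per kb of exon (vertical log axis) of each quiescence regulator in 3 WT and 3 CD103KO libraries (points), in order of the mean. Txnip and Btg1 lie at 236 and 173 CPM per kb and Tsc1 at 3.46, and the ranges of Rheb and Tsc2 overlap.

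Across the libraries the 10 genes did not share 1 profile. Txnip was highest and Tsc2 lowest in WT replicate 1 (0.19 and -0.16 on the log2 scale from the mean of the 6 libraries), and Txnip was lowest and Tsc2 highest in CD103KO replicate 3 (-0.10 and 0.13). Over the 6 libraries their log2 CPM had Pearson's r = -0.946 (exact permutation p = 0.00694) and Spearman's rho = -0.886 (exact permutation p = 0.0333). After Benjamini-Hochberg adjustment over the 45 pairs of the 10 genes these p-values were 0.219 and 0.5, and no pair passed. Without WT replicate 1 and CD103KO replicate 3, the libraries farthest from the median of Tsc2, r was -0.55, so the relation rests on those libraries. Both groups were pooled for r and permuted without regard to group. Txnip was lower and Tsc2 higher in all CD103KO libraries, so r also contains the difference between groups.

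Btg2, Tob1 and Tob2 were all below their means in WT replicate 3 (-0.13, -0.25 and -0.11) and CD103KO replicate 1 (-0.06, -0.19 and -0.12). These libraries lie in different groups, and Btg1 was not low in either (0.05 in WT replicate 3). For Tob1 and Tob2, r was 0.901 over the 6 libraries (exact permutation p = 0.0625, 0.563 after adjustment over 45 pairs), with rho = 0.543. Without those libraries it was -0.675, so it too rests on them. The genes whose profile over the 6 libraries was nearest to that of Btg1, the gene of smallest p among the 10, were Csrnp1, Net1 and Fam136a, with mean absolute differences of 0.0115, 0.0116 and 0.0117 in centred log2 CPM. Their log2 fold changes were -0.12, -0.13 and -0.12, and none passed (adjusted p = 0.535, 0.517 and 0.593, edgeR). Fold changes near that of Btg1 follow from the choice by profile over the same libraries.

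**Figure D4:**
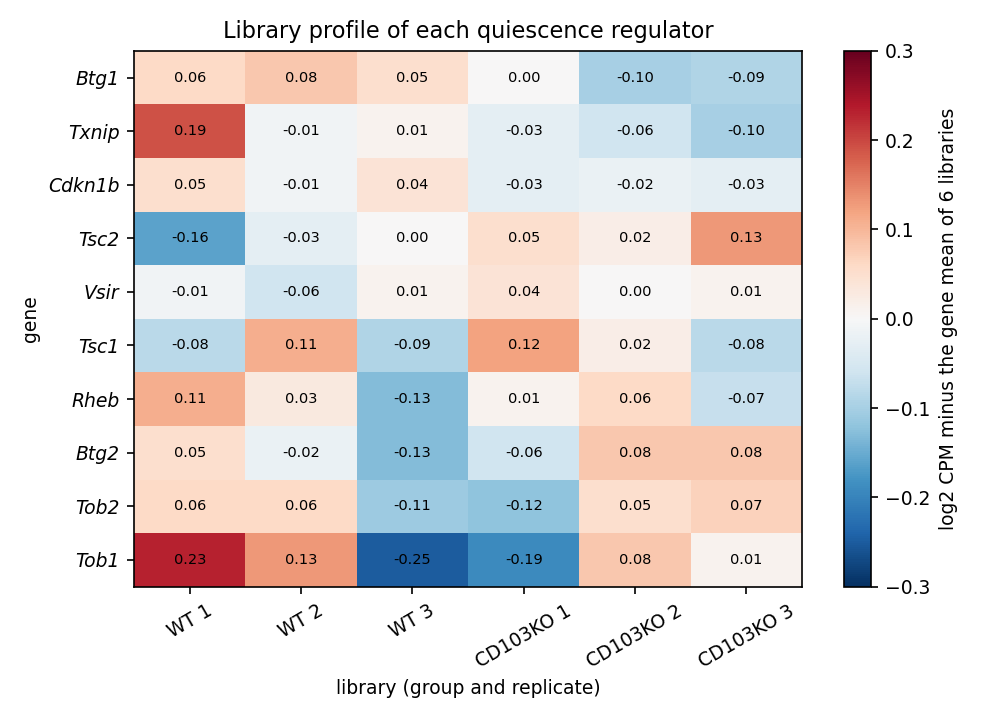
Log2 CPM of each quiescence regulator (rows) in each library (columns) minus the mean of the gene over the 6 libraries, on a scale from -0.3 (blue) to 0.3 (red). Tob1 reaches 0.23 in WT replicate 1 and -0.25 in WT replicate 3, and Cdkn1b and Vsir stay within 0.06 of their means.

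Genes that work with the 10 were taken from lists by role, and 0 genes were called by edgeR in every one of these lists, while DESeq2 called Cnot8, Nfkbia and Zfp36. Counts at an unadjusted p under 0.05 are to be read against 4.53% (higher) and 4.2% (lower) of all tested genes. List values are from the group comparison, and the fit with the Xist term is given where it turned a sign or moved a value by over 1.5 times. Of the BTG family, Btg3 was at 16.1 ± 0.761 CPM in WT and 15.1 ± 0.304 in CD103KO (SD, n = 3, log2 fold change -0.09, adjusted p = 0.699, edgeR; -0.04 with the Xist term), and Btg4, an oocyte gene, was at 0 in all libraries. All 17 genes of the CCR4-NOT complex and its poly(A) partners were tested, 2 with higher and 0 with lower values at an unadjusted p under 0.05, median log2 fold change 0.02. The median was -0.017 with the Xist term, -0.002 without CD103KO replicate 3 and 0.058 without CD103KO replicate 1. Cnot8, a catalytic subunit that BTG and TOB proteins bind, was at 70.6, 68.2 and 73.4 CPM in WT and 79.3, 80.7 and 85.6 in CD103KO. All CD103KO libraries were above WT, by 0.21 on the log2 scale, which did not pass with edgeR (adjusted p = 0.189) and passed with DESeq2 (adjusted p = 0.0259). Cnot8 lies 14.97 Mb from Itgae on chromosome 11. The predicted gene Gm18860 on chromosome 8, 97.8% identical to Cnot8 over 760 bases, rose by 5.92 on the log2 scale (adjusted p = 2.283e-05, edgeR), and the division of reads between them is uncertain. Cnot1, the scaffold of the complex, was at 369, 370.2 and 387.5 CPM in WT and 406, 418 and 438 in CD103KO, again without overlap (log2 fold change 0.16, adjusted p = 0.310, edgeR, and 0.0738, DESeq2). In this list 2 genes had no overlap with CD103KO higher and 4 with CD103KO lower (6.82% and 7.36% of all tested genes). Log2 fold changes of the 4 were -0.09 to -0.04.

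Upstream of RHEB, 15 of 16 genes of the TSC complex, AMPK, AKT and stress inputs were tested, 0 with higher and 1 with lower values at an unadjusted p under 0.05 and a median of -0.01 (-0.007 with the Xist term). Ddit4, a stress-induced activator of the TSC complex, was at -0.19 on the log2 scale (adjusted p = 0.528, edgeR), its groups overlapping, at -0.04 with the Xist term and at -0.11 without WT replicate 1. Sesn3, a sestrin induced by FOXO factors, had 0.10 (adjusted p = 0.593, edgeR), 0.18 with the Xist term and 0.06 without WT replicate 3. Downstream, 2 of the 12 mTORC1 genes had higher and 1 had lower values at an unadjusted p under 0.05, median 0.03. This median was -0.03 with the Xist term, -0.003 without WT replicate 1 and 0.075 without CD103KO replicate 1. Ulk1, the autophagy kinase that mTORC1 inhibits, had 0.16 (adjusted p = 0.490, edgeR), and Rptor, which encodes raptor, had 0.12 (adjusted p = 0.551, edgeR; 0.21 with the Xist term, 0.08 without WT replicate 3). The 25 Rag GTPase and GATOR genes, which relay amino acid supply to mTORC1, had 1 gene on each side at an unadjusted p under 0.05, median -0.03. Of these, the Rag GTPase gene Rragb had -0.22 (adjusted p = 0.490, edgeR) and the GATOR1 subunit gene Depdc5 had 0.15 (adjusted p = 0.515, edgeR).

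Around TXNIP, 12 of 14 thioredoxin and arrestin-domain genes were tested, of which 1, with higher values, had an unadjusted p under 0.05, with a median of -0.01. The median was -0.057 with the Xist term and 0.01 without WT replicate 2. Mlxip, which encodes MondoA, the glucose-sensing activator of Txnip, was at 71.1, 71.2 and 70.2 CPM in WT and 75.7, 79.1 and 78.2 in CD103KO. The groups were tight and did not overlap, and its log2 fold change was 0.13 (not past the threshold, adjusted p = 0.374, edgeR), opposite in sign to that of Txnip. Arrdc3, an arrestin-domain relative of Txnip, was at 11.8, 11.4 and 11.8 CPM in WT and 11.2, 9.87 and 10.9 in CD103KO. All CD103KO libraries were below WT, by -0.13 on the log2 scale (not past the threshold, adjusted p = 0.661, edgeR), and -0.08 without CD103KO replicate 2. Of CDK inhibitors and G1 control genes, 21 of 23 were tested, of which 2, both with higher values, had an unadjusted p under 0.05, median 0.02 (-0.011 without WT replicate 2, 0.05 with the Xist term). The CDK-binding gene Cks1b, which takes part in the degradation of p27Kip1, had 0.23 (adjusted p = 0.490, edgeR; 0.14 with the Xist term) and the cyclin E gene Ccne1 had 0.19 (adjusted p = 0.497, edgeR).

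Of the VISTA partners and inhibitory receptors, 12 of 16 were tested, of which 1, with higher values, had an unadjusted p under 0.05, with a median of 0.06. The median was -0.019 with the Xist term and -0.002 without WT replicate 1. Selplg, which encodes PSGL-1, a VISTA partner, was at 693, 671 and 669 CPM in WT and 717, 713 and 706 in CD103KO. All CD103KO values were above WT, by 0.07 on the log2 scale (not past the threshold, adjusted p = 0.616, edgeR). The inhibitory receptor gene Cd96 had 0.10 (adjusted p = 0.558, edgeR; 0.19 with the Xist term, 0.06 without WT replicate 3), and the partner gene Igsf11 was at 0 in all libraries, as were Vsig4 and Vsig8.

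The list of quiescence transcription factors, which also holds the Schlafen gene Slfn2, had 13 of 14 genes tested. At an unadjusted p under 0.05 there were 1 with higher and 2 with lower values (Klf2 and Slfn2), with a median of -0.05. With the Xist term the median turned to 0.055, and without WT replicate 2 it was -0.023. Klf2, a FOXO1 target that keeps T cells resting, had -0.15 (adjusted p = 0.497, edgeR; -0.04 with the Xist term) with overlapping groups, and Elf4 had 0.10 (adjusted p = 0.497, edgeR). Of immediate early genes, the first to respond to stimulation, 22 of 23 were tested, with a median of -0.05. The list also holds the heat-shock genes Hspa1a and Hspa1b. At an unadjusted p under 0.05 there were 1 with higher values (Hspa1b) and 6 with lower values. Hspa1b was at 5.06, 14.1 and 22.7 CPM in WT and 40.6, 24.4 and 23.7 in CD103KO. The median was -0.105 without CD103KO replicate 1 and 0.001 without CD103KO replicate 2. Nfkbia, the inhibitor of NF-kB, was at 104, 99.5 and 103 CPM in WT and 86.7, 91.0 and 90.1 in CD103KO. The groups were well apart, at -0.19 on the log2 scale, which did not pass with edgeR (adjusted p = 0.150) and passed with DESeq2 (adjusted p = 0.0172). Zfp36, which encodes the AU-rich element binder tristetraprolin that also recruits CCR4-NOT, was at -0.26 on the log2 scale (adjusted p = 0.288, edgeR; 0.0305, DESeq2), and at -0.14 with the Xist term.

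**Figure D5:**
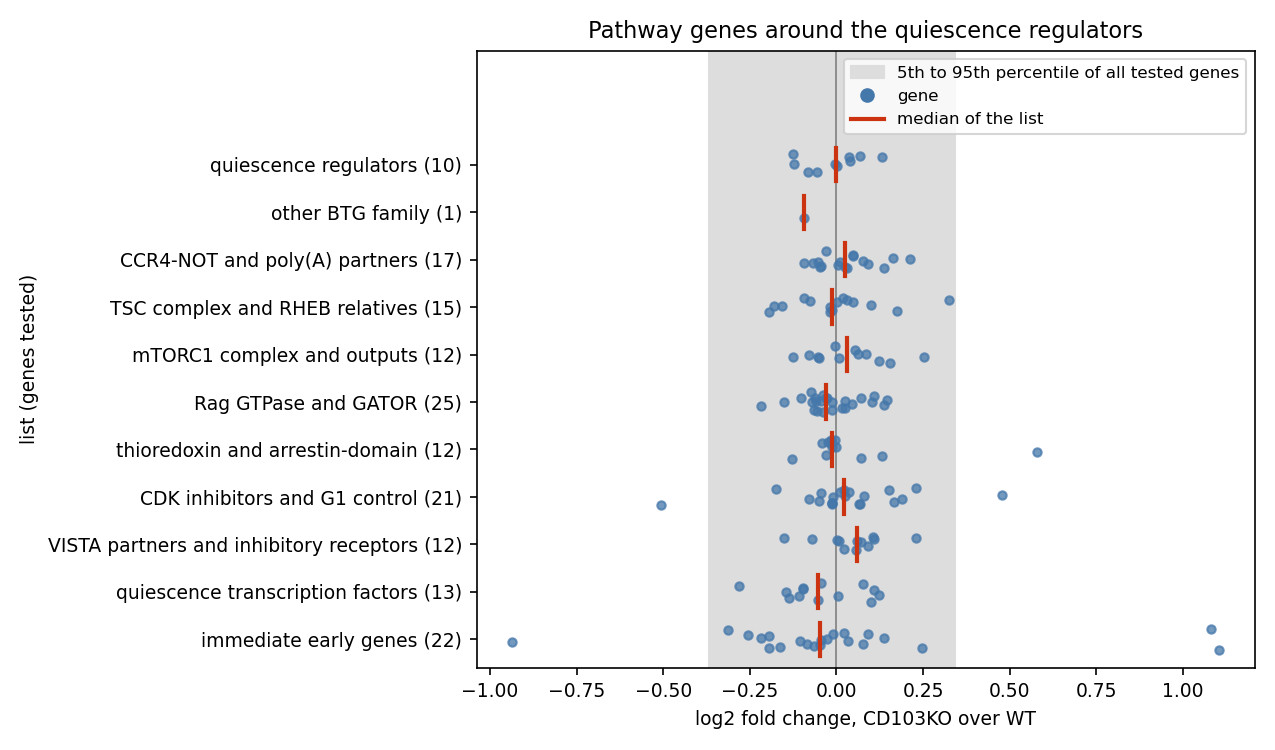
Log2 fold change (CD103KO over WT, horizontal axis) of every tested gene of each list (rows, number tested in brackets), with the median of the list as a red bar and the range from the 5th to the 95th percentile of all tested genes (-0.37 to 0.34) in grey. All 10 quiescence regulators lie inside the grey range, and the list medians run from -0.09 to 0.06 in the group comparison, several with the other sign when Xist reads are a term.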

How the data were processed

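Polyadenylated RNA of 6 libraries was sequenced; per the labels' protocols, RNA was purified on columns and libraries were made with a kit for stranded mRNA. The submitters' processing notes name STAR 2.7.0f, RSEM, cutadapt 1.18, bcl2fastq 2.20 and the build GRCm38 (mm10). For the counting, the strand setting, annotation release and RSEM version were not given in the sources used here. Values as deposited are expected counts per gene, estimated and not normalized, of which 6.48% were not whole; these were rounded to whole numbers. All 55450 identifiers matched GENCODE M21, the source of positions and exon lengths.

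CD103KO was compared with WT with edgeR 4.0.16 (R 4.3.3): filterByExpr (minimum count 10), TMM, quasi-likelihood F test on group, and Benjamini-Hochberg adjustment at 0.05 over 13470 genes. The standard error is the log2 fold change divided by the square root of F. In simulated data the fit recovered 42% of 50 genes changed 1.25-fold and 90% of 50 genes changed 2-fold, at an adjusted p under 0.05. Changes as small as those of the 10 genes were not simulated. Pairs of libraries within a group had chi-square values of 12.7 to 26.4 per degree of freedom, above sampling noise. Alternatives used DESeq2 1.42.0, limma 3.58.1 (voom, also with quality weights), RLE and upper-quartile factors, other filters, unrounded counts, a replicate block, a term for Xist reads (above 1 CPM), only the libraries without them, and each library left out. Transcripts were compared with megablast (BLAST+ 2.17.0) at 90% identity over 300 bases: 1 Tsc2 transcript shares such a stretch with 27 genes, 7 of them tested, another with Pkd1, Txnip with Gm15441 (100% over 443 bases), and Btg1 with Gm14519, which had 0 counts; Cnot8 was compared the same way. Exact tests used SciPy 1.17.1 and plots matplotlib 3.10.9.

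The 10 genes and all lists were chosen with earlier results of these data known. Named beside the 10 are Itgae, in each list the 2 tested genes of smallest p (none was called), and the 3 genes nearest to Btg1 in profile. Marker genes, Xist, Ddx3y, Gm18860, Kdm5d, Slfn2, Junb, Hspa1a, Hspa1b and genes overlapping the 10 were named after their values were seen.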

Additional observations from a re-analysis of the deposited data

How the results depend on the processing

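Of the 10 genes, 0 were called under each of 17 alternatives; the lowest adjusted p was 0.104 (Btg1, limma-voom with quality weights). Btg1 (log2 fold change -0.16 to -0.11), Btg2 (0.02 to 0.17), Tsc2 (0.07 to 0.16), Txnip (-0.16 to -0.06), Cdkn1b (-0.08 to -0.04) and Vsir (0.01 to 0.05) had the same sign in all 17. Tob1 turned to 0.22 and Rheb to 0.13 with the Xist term. The libraries without Xist reads gave the same values by design, since both settings compare WT replicate 3 alone with the CD103KO libraries. Tob2 turned to -0.01 with upper-quartile factors, -0.0024 without a filter, -0.0016 with a filter of 1 CPM in 3 libraries and -0.00012 with limma-voom. Leaving out each library gave -0.21 to 0.01 for Tob1, -0.05 to 0.06 for Tob2, -0.01 to 0.11 for Tsc1 and -0.07 to 0.05 for Rheb. The cause was not tested. With the Xist term the medians of the 10 genes (0.09), the CCR4-NOT (-0.017), mTORC1 (-0.03) and VISTA (-0.019) lists and the quiescence transcription factors (0.055) changed sign.

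Over all genes, 30 calls became 112 without a filter, 137 with DESeq2, 50 with quality weights, 15 with the Xist term and 13 in the libraries without Xist reads. Leaving out each library gave 19 (without CD103KO replicate 2) to 59 (without CD103KO replicate 1) calls, and 52 without WT replicate 3. Calls in the CCR4-NOT list went from 0 to 1 with DESeq2. Calls among immediate early genes went from 0 to 2 with DESeq2, to 1 without a filter (Zfp36), and to 0 to 1 with each library left out, the 1 (Junb) being without CD103KO replicate 1.

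With the replicate number as a block, 24 genes were called, 21 of them among the 30, and 0 of the 10. Same-numbered libraries had correlations of deviations of -0.199, -0.00535 and -0.0299, so the numbers were not taken to pair them.

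Of the 10, Tob1 had the fewest counts and the widest interval.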
